A study of Homo sapiens with 12 samples.

Results

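The core circadian clock genes were described here as 10 genes taken by name from the deposited tables, namely CLOCK, ARNTL (also called BMAL1), PER1, PER2, PER3, CRY1, CRY2, NR1D1, NR1D2 and DBP. They were 10 of the 60558 genes that both tables held, out of 60623 genes in the NONO table and 60671 in the PKM2 table. RNA-seq was performed in MDA-MB-231, an established human triple-negative breast cancer cell line, so every group is a model of 1 line. The study had 2 experiments of 6 libraries each. In the first, 3 negative control (NC) libraries of wild-type cells were compared with 3 NONO-knockdown libraries, and in the second, 3 further NC libraries of wild-type cells were compared with 3 PKM2-knockdown libraries. The submitters' design text gives siRNA as the knockdown reagent, while the RNA-seq methods do not name it, and no label gives a time after knockdown, a synchronisation step or a time of day.

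In the clock, the proteins CLOCK and ARNTL pair and activate genes through E-box sequences in promoters. PER and CRY proteins are made from these genes, return to the nucleus and repress CLOCK and ARNTL, which closes the main feedback loop. NR1D1 and NR1D2 (REV-ERB alpha and beta) repress ARNTL through ROR elements in a further loop, and DBP carries rhythmic activation to output genes through D-boxes. NONO is an RNA- and DNA-binding protein known as a partner of PER proteins, and PKM2 is an isoform of the glycolytic enzyme pyruvate kinase M. Cultured cells that are not synchronised hold clocks at mixed phases, and a bulk library gives a level averaged over its cells. Whether the cells here were at mixed phases is not given. A difference in clock phase between groups and an effect of knockdown cannot be told apart here.

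Promoter sequence is shown for 5 clock genes that were called in at least 1 experiment, picked so that each arm of the loop (activator, period, cryptochrome, nuclear receptors) is seen with the element it is known for. The windows run from 250 bases before to 50 bases after a RefSeq start on GRCh38.p14, 5′ to 3′ on the strand of the gene. They are chr3:23945871-23946170 on the plus strand for NR1D2, chr17:8152355-8152654 on the minus strand for PER1, chr17:40100540-40100839 on the minus strand for NR1D1, chr12:107093500-107093799 on the minus strand for CRY1 and chr11:13277540-13277839 on the plus strand for ARNTL. Capitals mark E-boxes (CACGTG) in NR1D2 and PER1, a D-box (TTACATAA) in NR1D2, E-prime boxes (AACGTG) in NR1D1 and CRY1, and a ROR element (AAGTAGGTCA) in ARNTL.
NR1D2: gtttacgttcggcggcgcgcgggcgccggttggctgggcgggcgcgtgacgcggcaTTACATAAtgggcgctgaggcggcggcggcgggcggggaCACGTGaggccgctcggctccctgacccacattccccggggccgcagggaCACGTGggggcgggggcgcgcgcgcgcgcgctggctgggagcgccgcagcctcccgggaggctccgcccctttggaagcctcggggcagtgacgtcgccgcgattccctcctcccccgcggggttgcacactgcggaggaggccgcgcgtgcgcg
PER1: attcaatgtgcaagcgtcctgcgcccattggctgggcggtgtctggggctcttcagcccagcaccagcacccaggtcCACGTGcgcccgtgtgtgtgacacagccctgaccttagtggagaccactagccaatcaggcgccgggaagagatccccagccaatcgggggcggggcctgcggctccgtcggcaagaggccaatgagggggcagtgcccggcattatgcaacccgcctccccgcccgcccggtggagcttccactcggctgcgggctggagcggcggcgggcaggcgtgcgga
NR1D1: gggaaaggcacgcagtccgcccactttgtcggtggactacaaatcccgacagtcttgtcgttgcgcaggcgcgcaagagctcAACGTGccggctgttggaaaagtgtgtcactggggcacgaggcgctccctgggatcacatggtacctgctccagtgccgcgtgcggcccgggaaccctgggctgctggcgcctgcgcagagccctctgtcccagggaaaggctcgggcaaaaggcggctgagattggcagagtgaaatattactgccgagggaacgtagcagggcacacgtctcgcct
CRY1: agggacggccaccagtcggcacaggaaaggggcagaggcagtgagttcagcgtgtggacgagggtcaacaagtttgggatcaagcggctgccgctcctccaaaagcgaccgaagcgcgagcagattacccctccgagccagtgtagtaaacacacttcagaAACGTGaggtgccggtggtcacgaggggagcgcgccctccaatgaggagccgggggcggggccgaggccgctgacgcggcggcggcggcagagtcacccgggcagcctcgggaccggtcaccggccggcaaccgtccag
ARNTL: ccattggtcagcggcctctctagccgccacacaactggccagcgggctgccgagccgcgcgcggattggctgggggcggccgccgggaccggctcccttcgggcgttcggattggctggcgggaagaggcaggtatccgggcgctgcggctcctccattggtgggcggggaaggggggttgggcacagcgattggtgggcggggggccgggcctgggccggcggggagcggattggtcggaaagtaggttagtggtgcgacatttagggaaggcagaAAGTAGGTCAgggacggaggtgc

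The search covered both strands of every window, and the marked words did not overlap one another. E-boxes (CACGTG) were found in windows of 2 of the 10 clock genes, at positions −155 and −105 from the start of NR1D2 and −173 from the start of PER1. Of all 35116 RefSeq promoter windows of this length, 7.26% held an E-box. E-prime boxes (CACGTT or AACGTG) were found in 5 clock genes, PER2, CRY1, CRY2, CLOCK and NR1D1, against 5.34% of all windows. D-boxes (TTATGTAA, TTACATAA or TTACGTAA) were found in PER2, PER3 and NR1D2, against 1.01% of all windows. ROR elements (AAN followed by TAGGTCA or TGGGTCA) were found in ARNTL, 28 bases after its start, and in CLOCK, against 0.379% of all windows. The cAMP response element in its full form (TGACGTCA) was in none of the 10 clock genes and in 1.85% of all windows. PER3, CRY2, ARNTL, CLOCK and NR1D2 had more than 1 window each, which gave them more sequence to match. DBP matched none of these words in its window. A match describes letters in these windows and says nothing on whether a factor bound there in these cells.

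All 10 clock genes passed the low-count filter in both experiments. Gene coordinates are those of GENCODE 29 on GRCh38. Libraries held 19861762 to 28455268 estimated counts. The targeted genes followed the labels. NONO lay at 358 to 391 CPM (counts scaled to library size, TMM-normalized) in its NC libraries and at 61.8 to 64.3 in its knockdown libraries. The PKM gene, whose count takes in every isoform, lay at 2270 ± 56.8 CPM in NC and 227 ± 8.30 after PKM2 knockdown (mean ± SD, n = 3). VIM, CD44, AXL and KRT18 were at 206 TPM (transcripts scaled to length and depth) or more in every library, CDH1 was listed at 0 in all but 1 library, and ESR1 and PGR reached at most 0.12 and 0.41 TPM. ERBB2, the HER2 receptor gene, was present at 13.68 to 35.22 TPM and fell by 0.86 ± 0.05 after PKM2 knockdown (edgeR adjusted P = 6.12e-08). EPCAM lay at 1.29 to 3.73 TPM and COL1A1 at 2.17 to 9.93 TPM, while CD14 and PECAM1 reached at most 1.82 and 2.31 TPM. Replicate 1 of the NONO experiment's NC group and replicate 3 of the PKM2-knockdown group lay farther from their replicates than the others did, at a median absolute log2 deviation of 0.142 and 0.150 against 0.0743 to 0.114, so results are also given without them where they change. Nothing in the labels says that replicates came from separate cultures, so P values measure the spread between libraries, which may be technical.

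After NONO knockdown, clock genes changed in both directions and by small amounts. The repressor NR1D2 rose by 0.27 on the log2 scale, while CRY1 fell by 0.29 and ARNTL fell by 0.32, and the other 7 clock genes did not pass the test (edgeR's quasi-likelihood test, Benjamini-Hochberg adjusted P below 0.05). Among all 14832 genes tested in this experiment, 16.2% were called higher and 17.2% lower, so 1 of 10 higher and 2 of 10 lower is near what the whole table gave. After PKM2 knockdown, 8 of the 10 clock genes rose, with NR1D1, PER2 and NR1D2 more than 2-fold higher, and CRY2 and DBP were not called. Here 33.6% of 15524 genes were called higher and 34.7% lower. No clock gene was called lower after PKM2 knockdown by edgeR or by DESeq2, which called 23.4% of its genes lower, and none was lower at an unadjusted P below 0.05. The study's cutoff, more than 2-fold with P below 0.05 before adjustment, was applied here to edgeR values, so the shares are not the study's own counts. It held for 7.05% of genes upward and 13.8% downward after PKM2 knockdown, and for 0.789% and 2.16% after NONO knockdown, where no clock gene reached it. The median log2 fold change of the 10 clock genes was −0.22 after NONO knockdown and 0.54 after PKM2 knockdown, beside −0.01 and −0.01 over all genes tested. In bulk RNA, a change in the share of cells that express a gene and a change of RNA per cell cannot be told apart.

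**Figure D1:**
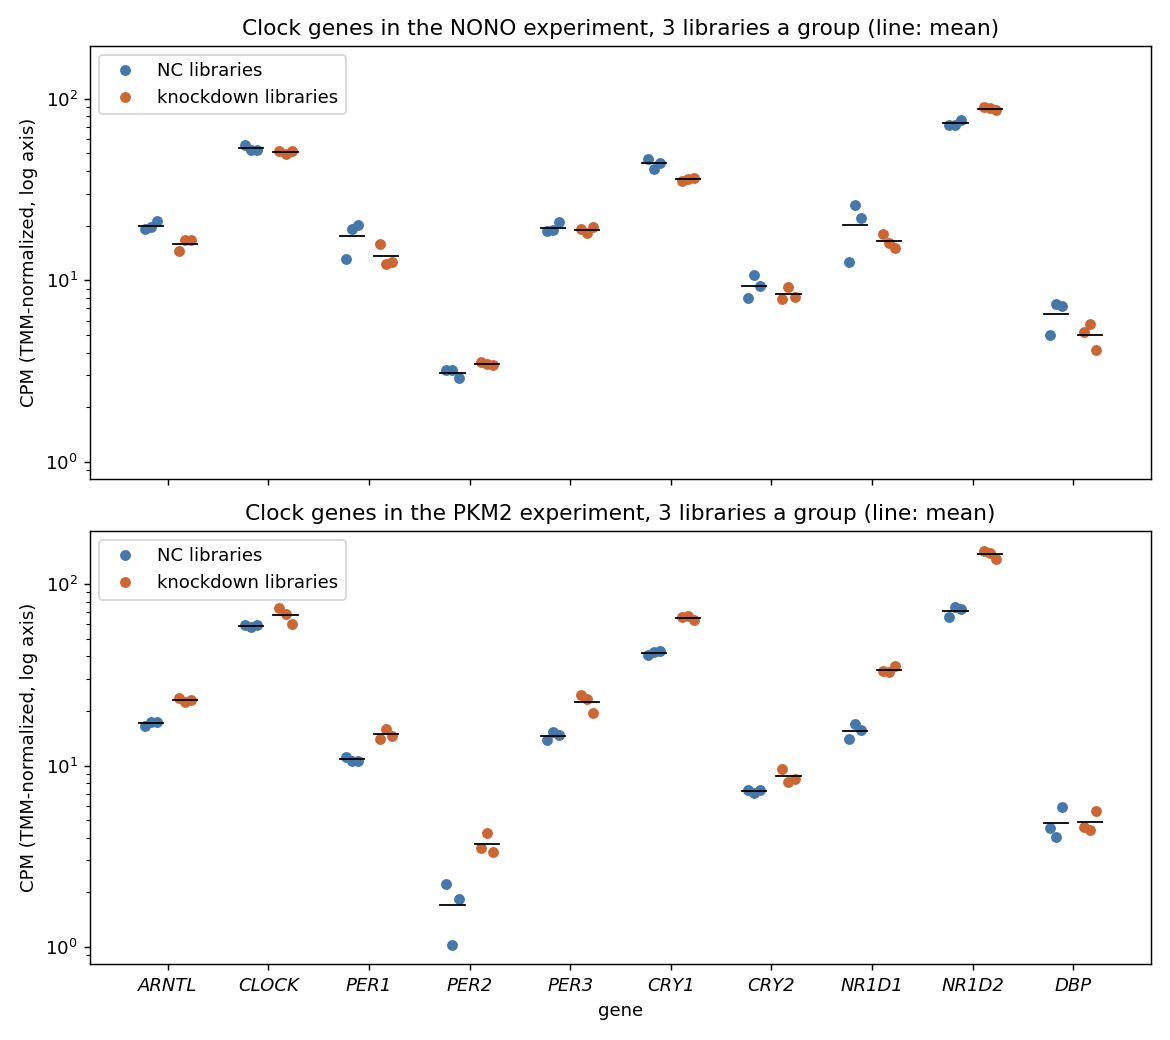
CPM (TMM-normalized, log axis) of the 10 clock genes in each library of the NONO experiment (top) and the PKM2 experiment (bottom), with NC libraries in blue, knockdown libraries in orange and a line at each mean (n = 3). In the PKM2 experiment the knockdown libraries lie above the NC libraries for 9 genes and overlap them for DBP.

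Per transcript length, CRY1 and NR1D2 were the most abundant clock genes in every group and PER2 the least. In the NC libraries of the PKM2 experiment, CRY1 lay at 23.4 ± 1.11 TPM and NR1D2 at 20.9 ± 1.65 TPM, with no overlap between their libraries. NR1D2 stood above CRY1 in both knockdown groups, at 39.7 ± 4.13 against 31.9 ± 2.65 TPM after PKM2 knockdown and at 23.0 ± 0.599 against 18.8 ± 0.882 TPM after NONO knockdown. In the NC groups the order of these genes was the opposite, and it did not overlap there either. ARNTL came next in every group but the PKM2-knockdown group, where NR1D1 took that place at 18.1 ± 0.304 TPM and above every ARNTL library. Ranges of ARNTL, NR1D1 and CLOCK overlapped from neighbour to neighbour in the NC groups, so their order there is within the spread. PER1, PER3 and DBP lay between 3.92 and 10.01 TPM, and their ranges overlapped from neighbour to neighbour among themselves in every group. CRY2 lay at 2.78 to 4.86 TPM, and PER2 lay at 0.50 to 0.98 TPM, below every library of the other clock genes.

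ARNTL (ENSG00000133794, chr11:13276652-13387266) encodes the partner that CLOCK needs to activate E-box genes. In the NONO experiment it lay at 19.1, 19.6 and 21.1 CPM in NC and at 14.5, 16.6 and 16.7 CPM in the knockdown libraries. All knockdown libraries were below all NC libraries, and the log2 fold change was −0.32 ± 0.09 (SE; edgeR adjusted P = 0.0153). The call was lost without the third NC library (−0.27, edgeR adjusted P = 0.0751) and without the first knockdown library (−0.26, edgeR adjusted P = 0.0719). PKM2-experiment libraries of ARNTL lay at 16.6, 17.3 and 17.4 CPM in NC and at 23.6, 22.4 and 22.9 CPM after knockdown. These groups were also apart, in the opposite order, and ARNTL rose by 0.42 ± 0.07 (edgeR adjusted P = 0.000193). The difference between the effects, PKM2 minus NONO, was 0.74 ± 0.11 (edgeR interaction, adjusted P = 2.52e-05).

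CLOCK (ENSG00000134852, chr4:55427903-55547138) encodes the DNA-binding partner of ARNTL. Its NONO-experiment libraries lay at 55.9, 52.0 and 52.1 CPM in NC and at 51.9, 49.9 and 51.3 CPM after knockdown. The groups met closely without overlap, and the log2 fold change was −0.06 ± 0.05 (edgeR adjusted P = 0.404). CLOCK in the PKM2 experiment lay at 59.4, 58.0 and 59.2 CPM in NC and at 74.2, 68.1 and 60.0 CPM after knockdown. The third knockdown library, which stood apart over all genes, was close to NC. CLOCK was called higher by 0.20 ± 0.07 (edgeR adjusted P = 0.0310), a call that was lost when any other library of this experiment was left out (adjusted P from 0.0703 to 0.124) and that stood at 0.28 without the third knockdown library (edgeR adjusted P = 0.000295). In TPM it did not rise, with a log2 difference of −0.04 (limma adjusted P = 0.791). The difference between the knockdowns was 0.25 ± 0.09 (edgeR interaction, adjusted P = 0.0348), and it was called in 5 of the 12 fits that left out 1 library.

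The period genes encode the repressors that accumulate and limit CLOCK and ARNTL activity. PER1 (ENSG00000179094, chr17:8140472-8156506) lay at 13.0, 19.1 and 20.2 CPM in the NC libraries of the NONO experiment and at 15.9, 12.3 and 12.7 CPM after knockdown. The first NC library lay among the knockdown libraries, and the log2 fold change was −0.36 ± 0.16 (edgeR adjusted P = 0.103). Without that library it was −0.52 ± 0.10 and called (edgeR adjusted P = 0.000438). PER1 in the PKM2 experiment lay at 11.2, 10.6 and 10.6 CPM in NC and at 14.01, 15.9 and 14.6 CPM after knockdown. Every knockdown library was above every NC library, and PER1 rose by 0.46 ± 0.09 (edgeR adjusted P = 0.000656). With the trend over GC content and transcript length taken out, this fold change was 0.74, and in TPM it was 0.43 and not called (limma adjusted P = 0.0894). PER1 differed between the knockdowns by 0.80 ± 0.19 (edgeR interaction, adjusted P = 0.00196).

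PER2 (ENSG00000132326, chr2:238244038-238290102) was the least abundant clock gene, with 26.0 to 98.8 estimated counts per library in the PKM2 experiment and 62.1 to 71 in the NONO experiment. NONO-experiment libraries lay at 3.21, 3.19 and 2.90 CPM in NC and at 3.54, 3.46 and 3.41 CPM after knockdown. The knockdown libraries were all slightly higher, and the log2 fold change was 0.16 ± 0.17 (edgeR adjusted P = 0.503). PKM2-experiment libraries lay at 2.22, 1.03 and 1.83 CPM in NC and at 3.52, 4.25 and 3.33 CPM after knockdown. No library overlapped between the groups, and PER2 rose by 1.11 ± 0.26 (edgeR adjusted P = 0.00233). In TPM the same libraries read 0.50, 0.61 and 0.85 in NC and 0.76, 0.98 and 0.66 after knockdown. Those groups overlapped, and the log2(TPM + 1) difference was 0.12 (limma without a filter, adjusted P = 0.565), on a scale that understates changes of genes at such levels. The TPM means themselves lay near each other, at 0.653 ± 0.179 in NC and 0.800 ± 0.164 after knockdown. The transcript length implied by count and TPM was 7849, 3058 and 3837 bases in the NC libraries, against a mean of 7661 ± 385 bases in the knockdown libraries. Low PER2 counts thus went with short implied lengths in NC replicates 2 and 3, and the part of the length in the rise was not tested. PER2 counts differed between the knockdowns by 0.94 ± 0.31 (edgeR interaction, adjusted P = 0.0174).

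PER3 (ENSG00000049246, chr1:7784320-7845177) lay at 18.7, 18.8 and 20.8 CPM in NC and at 19.1, 18.1 and 19.6 CPM after NONO knockdown. The groups overlapped throughout, with a log2 fold change of −0.04 ± 0.08 (edgeR adjusted P = 0.766). PKM2 knockdown libraries lay at 24.6, 23.3 and 19.5 CPM against 13.9, 15.2 and 14.7 CPM in NC. All were above NC, by the smallest margin in the library that stood apart, and PER3 rose by 0.62 ± 0.10 (edgeR adjusted P = 0.000109). The difference between the knockdowns was 0.65 ± 0.13 (edgeR interaction, adjusted P = 0.000407).

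Cryptochromes are the main repressors of the loop, and CRY1 was more abundant than CRY2 in every library. CRY1 (ENSG00000008405, chr12:106991364-107093829) lay at 46.8, 41.1 and 44.4 CPM in NC and at 35.4, 36.3 and 36.6 CPM after NONO knockdown. The groups did not overlap, and CRY1 fell by 0.29 ± 0.06 (edgeR adjusted P = 0.00476). It was called in all 13 alternatives that gave an adjusted P, the 6 fits that left out 1 library included. PKM2-experiment libraries of CRY1 lay at 40.4, 42.1 and 42.5 CPM in NC and at 65.9, 66.5 and 63.1 CPM after knockdown. CRY1 rose by 0.64 ± 0.05 (edgeR adjusted P = 7.12e-07), again in all 13 such alternatives. With opposite calls in the experiments, CRY1 had the smallest adjusted P among the clock genes for the difference between the knockdowns, 0.92 ± 0.08 (edgeR interaction, adjusted P = 5.94e-08).

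CRY2 (ENSG00000121671, chr11:45847118-45883248) lay at 8.03, 10.7 and 9.30 CPM in NC and at 7.88, 9.15 and 8.14 CPM after NONO knockdown. These overlapped, with a log2 fold change of −0.16 ± 0.13 (edgeR adjusted P = 0.397). In the PKM2 experiment it lay at 7.34, 7.07 and 7.37 CPM in NC and at 9.61, 8.12 and 8.40 CPM after knockdown. The groups did not overlap, yet the log2 fold change of 0.26 ± 0.11 missed the threshold (edgeR adjusted P = 0.0557). It passed with relative log expression factors (edgeR adjusted P = 0.0462), and in TPM its direction was the opposite, −0.21 (limma adjusted P = 0.356). The implied CRY2 length was 3462 ± 921 bases in NC and 4483 ± 331 bases after PKM2 knockdown, with overlap between their libraries. The difference between the knockdowns was 0.41 ± 0.17 (edgeR interaction, adjusted P = 0.0530).

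NR1D1 and NR1D2 encode haem-binding nuclear receptors that repress ARNTL, and after PKM2 knockdown they rose alongside it. NR1D1 (ENSG00000126368, chr17:40092787-40100725) lay at 14.03, 16.96 and 15.7 CPM in NC and at 33.3, 32.8 and 35.3 CPM after PKM2 knockdown. The groups were far apart, and NR1D1 rose by 1.12 ± 0.08 (edgeR adjusted P = 1.71e-07), a 2.18-fold change. In TPM the mean moved from 9.12 ± 0.965 to 18.1 ± 0.304, and the implied lengths of the groups were 3047 ± 4.89 and 3060 ± 4.52 bases. After NONO knockdown NR1D1 lay at 17.9, 16.0 and 15.2 CPM, against 12.6, 26.0 and 22.2 CPM in NC. The first NC library was the lowest of the 6 and the other NC libraries were the highest, so the log2 fold change of −0.31 ± 0.20 was not called (edgeR adjusted P = 0.267). Without the first NC library it was −0.55 ± 0.09 (edgeR adjusted P = 7.76e-05), and without the second NC library it was −0.09. The difference between the knockdowns was 1.42 ± 0.23 (edgeR interaction, adjusted P = 6.79e-05), and it was called in all 12 fits that left out 1 library.

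NR1D2 (ENSG00000174738, chr3:23945260-23980618) was the clock gene called higher in both experiments. It lay at 71.7, 71.9 and 76.1 CPM in NC and at 89.6, 88.7 and 86.6 CPM after NONO knockdown. The libraries did not overlap, and NR1D2 rose by 0.27 ± 0.05 (edgeR adjusted P = 0.00107). In TPM the log2 difference was 0.20 and not called (limma adjusted P = 0.0800). PKM2-experiment libraries lay at 65.9, 74.9 and 72.7 CPM in NC and at 152.3, 148.2 and 137.0 CPM after knockdown. NR1D2 rose there by 1.04 ± 0.06 (edgeR adjusted P = 4.09e-08), the smallest adjusted P of the clock genes in that experiment, and it was called in all 13 alternatives that gave an adjusted P. The rise was larger after PKM2 knockdown than after NONO knockdown, by 0.75 ± 0.08 (edgeR interaction, adjusted P = 4.92e-07).

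DBP (ENSG00000105516, chr19:48630030-48637438), a PAR bZIP activator and a widely used readout of CLOCK and ARNTL activity, was called in neither experiment, like CRY2. In the PKM2 experiment it lay at 4.54, 4.05 and 5.89 CPM in NC and at 4.60, 4.43 and 5.63 CPM after knockdown. The groups coincided, with a log2 fold change of 0.02 ± 0.17 (edgeR adjusted P = 0.940) whose sign turned when any of 3 single libraries was left out. In the NONO experiment it lay at 4.97, 7.44 and 7.20 CPM in NC and at 5.19, 5.75 and 4.12 CPM after knockdown. The first NC library fell among the knockdown libraries, and the log2 fold change was −0.38 ± 0.19 (edgeR adjusted P = 0.139). Without that library DBP was called lower at −0.53 ± 0.16 (edgeR adjusted P = 0.0104). The difference between the knockdowns, 0.39 ± 0.26, was not called (edgeR interaction, adjusted P = 0.234).

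**Figure D2:**
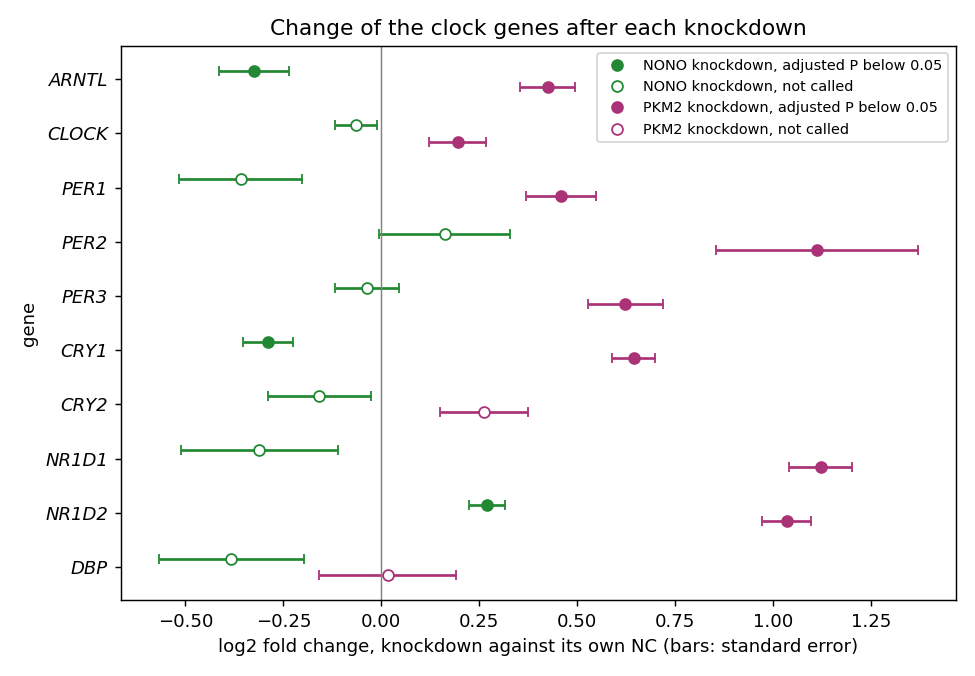
Log2 fold change of each clock gene, knockdown against its own NC, with standard errors (n = 3 libraries a group), in green for NONO and purple for PKM2, filled where the edgeR adjusted P was below 0.05. Every purple point lies above 0, from 0.02 for DBP to 1.12 for NR1D1, and 8 of the 10 green points lie below 0.

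Between the experiments, the fold change after PKM2 knockdown was above that after NONO knockdown for all 10 clock genes, and the interaction was called for 8, all but CRY2 and DBP. Over the 15995 genes of this fit, 25.7% were called in that direction and 27.4% in the other, 53.1% in all. The median difference of the clock genes was 0.74, beside −0.02 over all genes. No clock gene was called in the other direction by edgeR or by DESeq2, which called 20.9% of its genes that way, and none at an unadjusted P below 0.05. With both libraries that stood apart left out, a choice made after seeing the data, CRY2 was called as well (0.53, edgeR interaction, adjusted P = 0.0147) and DBP was not (0.43, adjusted P = 0.158). Each target had its own experiment, so differences between targets and between experiments cannot be told apart. Some NC levels also differed between the NONO and PKM2 experiments, each normalized on its own. PER1 lay at 17.4 ± 3.84 and 10.8 ± 0.336 CPM and PER2 at 3.10 ± 0.176 and 1.70 ± 0.605. CRY1 (44.1 ± 2.82 and 41.7 ± 1.12) and NR1D2 (73.2 ± 2.48 and 71.2 ± 4.71) lay closer.

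Library by library, knockdown and NC values did not overlap for 5 clock genes in the NONO experiment. NR1D2 and PER2 were above NC in every knockdown library, while CRY1, ARNTL and CLOCK were below it. Such separation was found for 22.6% of all tested genes upward and 23.5% downward. In the PKM2 experiment 9 of the 10 clock genes were above NC in every knockdown library, all but DBP, and none was below, where 35% of all tested genes were above and 36.9% below. A two-sided exact permutation test over 3 against 3 libraries cannot go below P = 0.1.

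Clock genes varied in how much a lone library decided them. With NC replicate 1 of the NONO experiment left out, 5 clock genes were called lower, namely PER1, NR1D1 and DBP in addition to CRY1 and ARNTL, and NR1D2 was still the only one called higher. In that fit 20.2% of all tested genes were called lower and 21% higher. With any other library left out, 1 or 2 clock genes were called lower after NONO knockdown. PER1, NR1D1 and DBP were low together in NC replicate 1, at 13.0, 12.6 and 4.97 CPM. That library was also the lowest of its group for CRY2, ARNTL, PER3 and NR1D2, and the highest for CRY1, CLOCK and PER2. Outside these genes, BHLHE40 lay at 19.1 CPM there against 44.9 and 41.7 in the other NC libraries, and SFPQ at 364 against 293 and 304. In the PKM2 experiment leaving out the third knockdown library kept all 8 calls, in a fit with 33.8% of genes called higher, and 7 or 8 clock genes were called whichever library was left out.

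**Figure D3:**
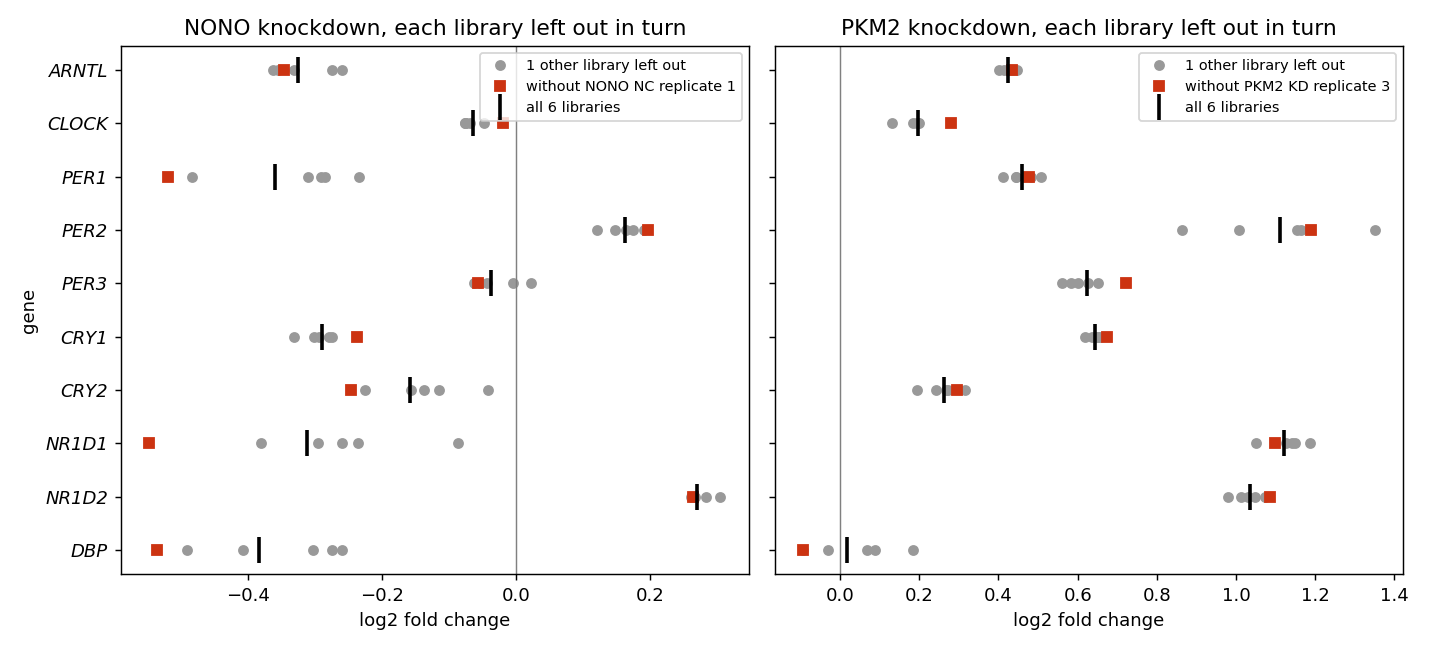
Log2 fold change of each clock gene with all 6 libraries (black bar), with the library that stood apart left out (red square) and with each other library left out in turn (grey), for NONO (left) and PKM2 knockdown (right). Red squares lie far from the grey points for NR1D1 (−0.55) in the NONO experiment, and PER1 and DBP also reach their lowest values there.

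Counts and TPM gave different sizes for some clock genes after PKM2 knockdown, and calls over all genes moved as well. Limma on TPM after a filter called 3525 genes higher and 4862 lower, against 5221 and 5393 by edgeR. The part of normalization in the clock gene values was not tested. NR1D2 rose by 0.89 and NR1D1 by 0.92 on the log2(TPM + 1) scale (limma without a filter), below their count-based values of 1.04 ± 0.06 and 1.12 ± 0.08. CRY1 rose by 0.43 on that scale. ARNTL was called in TPM too, while PER1, PER2, PER3, CLOCK and CRY2 were not. PER3 was at 0.45 there (limma without a filter, adjusted P = 0.125) and passed with the TPM filter (limma adjusted P = 0.0489). The genes with a changed sign in TPM, CLOCK and CRY2, had implied lengths of 11370 ± 1199 and 3462 ± 921 bases in NC and 12287 ± 641 and 4483 ± 331 bases after knockdown. For both genes the lengths of NC and knockdown libraries overlapped. PER2 did not pass a filter at a mean TPM of 1. Of the other clock genes, 5 were called higher by limma after that filter, where 25.1% of all genes tested were.

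**Figure D4:**
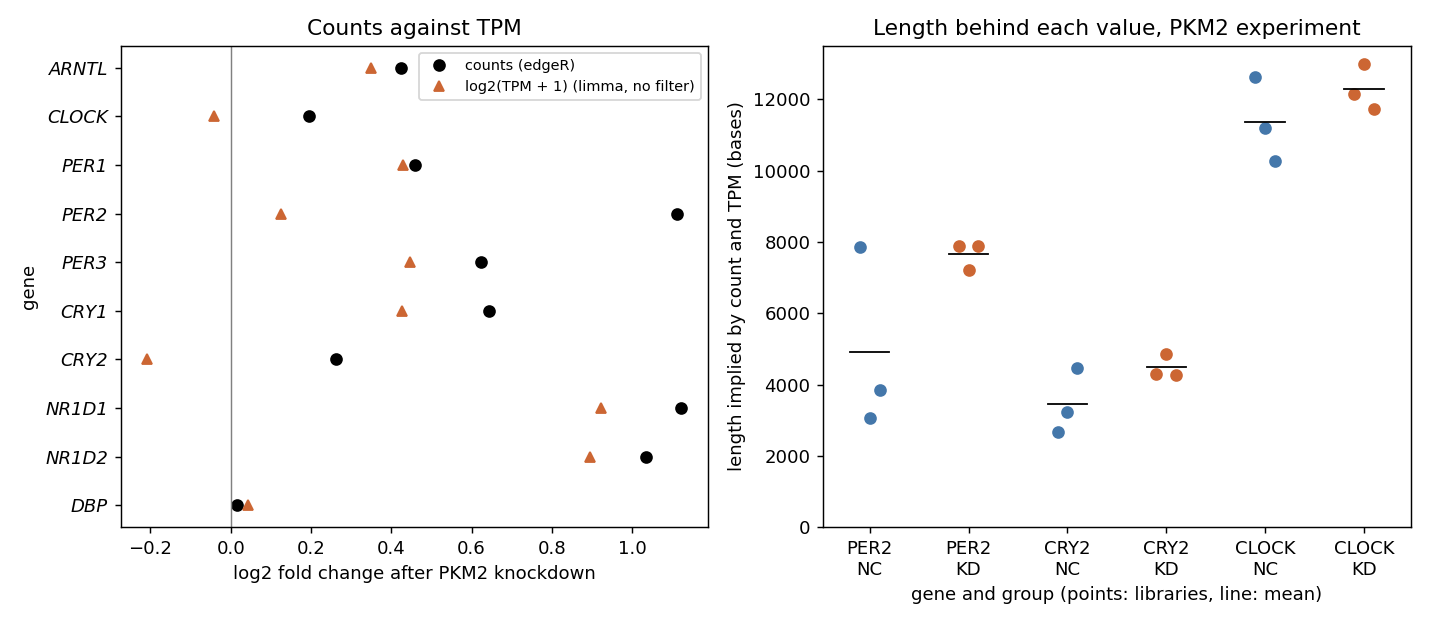
Left, log2 fold change after PKM2 knockdown from counts (circles) and from log2(TPM + 1) (triangles) for each clock gene. Right, the length in bases implied by count and TPM in each library of the PKM2 experiment for PER2, CRY2 and CLOCK, with a line at the mean, showing NC values of PER2 from 3058 to 7849 bases.

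Some clock genes share exon bases with a neighbour in GENCODE 29, and the labels describe no strand-marking step in the library preparation, so reads in the shared bases could belong to either gene. NR1D1 shares 263 bases (9.49% of its exon bases) with THRA, a thyroid hormone receptor gene on the opposite strand. THRA fell by 0.29 ± 0.07 after PKM2 knockdown (edgeR adjusted P = 0.0026), the opposite direction to NR1D1. DBP shares 661 bases (10.1%) with SPHK2, a sphingosine kinase gene on the opposite strand. SPHK2 rose by 0.65 ± 0.06 after PKM2 knockdown (edgeR adjusted P = 1.46e-06), while DBP did not, and the part of the shared reads in the DBP value was not tested. PER3 shares 868 bases with UTS2 and 482 bases with an antisense transcript, PER2 shares 188 bases with a noncoding transcript, and CRY1, CLOCK and PER1 share 94, at most 76 and at most 78 bases with any neighbour. ARNTL, CRY2 and NR1D2 share none.

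Other clock genes were described by 4 lists with 34 genes in all, chosen with earlier results of these data known. Among loop factors outside the 10 genes, 3 of 9 tested were called higher after PKM2 knockdown and 4 lower, beside 33.6% and 34.7% of all genes. TEF, a PAR bZIP activator related to DBP, rose by 1.41 ± 0.10 (edgeR adjusted P = 1.18e-07), from 6.14 ± 0.342 to 16.3 ± 0.820 CPM. BHLHE41 (DEC2), a repressor at E-boxes, rose by 1.47 ± 0.09, and NFIL3, a repressor at D-boxes, rose by 0.62 ± 0.08 (edgeR adjusted P = 6.61e-08 and 1.70e-05). NPAS2, a paralog of CLOCK, fell by 0.98 ± 0.06 (edgeR adjusted P = 3.08e-08), from 67.8 ± 1.70 to 34.3 ± 1.43 CPM. TIMELESS fell by 0.46 ± 0.06 and ARNTL2, a paralog of ARNTL, fell by 0.17 ± 0.06 (edgeR adjusted P = 2.05e-05 and 0.0328). RORB, an activator at ROR elements, was called lower on 2 to 67 counts per library. After NONO knockdown TIMELESS was the only loop factor called of 10 tested, higher by 0.19 ± 0.05 (edgeR adjusted P = 0.0153), where 16.2% of all genes were called higher and 17.2% lower.

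CLOCK and its paralog NPAS2 were called in opposite directions after PKM2 knockdown, and so were ARNTL and ARNTL2, although the calls of CLOCK and ARNTL2 depended on which libraries were used. NPAS2 did not differ between the groups of the NONO experiment beyond its spread, at 75.7 ± 10.02 CPM in NC and 75.4 ± 3.92 CPM after knockdown. TEF and DBP, which bind the same D-box, lay at log2 fold changes of 1.41 and 0.02 after PKM2 knockdown.

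Of 8 tested genes that set PER and CRY stability, 4 were called higher after PKM2 knockdown and 3 lower, beside 33.6% and 34.7% of all genes. CSNK1D and CSNK1E, the kinases that phosphorylate PER, rose by 0.38 ± 0.04 and 0.43 ± 0.06 (edgeR adjusted P = 1.15e-05 and 2.92e-05), although CSNK1E was at 0.17 in TPM and not called (limma adjusted P up to 0.268). GSK3B, another clock kinase, rose by 0.43 ± 0.06 (edgeR adjusted P = 3.26e-05). CSNK2A1 rose by 0.21, whereas CSNK2A2, the other catalytic subunit of casein kinase 2, fell by 0.70 ± 0.05 (edgeR adjusted P = 2.37e-07). The PER ligase gene BTRC fell by 0.16 and the CRY deubiquitinase gene USP7 fell by 0.21. In the NONO experiment GSK3B was the only one of 8 called, higher by 0.19 ± 0.06 (edgeR adjusted P = 0.0252), against 16.2% of all genes called higher.

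Partners of the PER complex included NONO itself, which fell by 2.57 ± 0.05 after its own knockdown. Its family members SFPQ and PSPC1 rose there by 0.66 ± 0.07 and 0.52 ± 0.07 (edgeR adjusted P = 4.1e-05 and 0.000175), and the corepressor genes HDAC1 and SIN3A rose by 0.35 and 0.16. That made 4 of 7 called higher and 1, the targeted gene, lower, beside 16.2% and 17.2% of all genes. After PKM2 knockdown, HDAC1, PSPC1, NONO and WDR5 were higher by 0.44, 0.34, 0.30 and 0.19, SIN3A fell by 0.18, and SFPQ was at 0.05 ± 0.05 (edgeR adjusted P = 0.348). These were 4 of 7 higher and 1 lower, beside 33.6% and 34.7% of all genes. NONO lay at 363 ± 10.2 CPM in NC and 447 ± 6.001 CPM after PKM2 knockdown. In TPM it was higher by 0.12, its groups overlapped, and it was not called (limma adjusted P up to 0.242).

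Of the output genes, WEE1 and NOCT were called by edgeR in opposite directions in the experiments. WEE1, a cell-cycle kinase gene, fell by 0.28 ± 0.07 after NONO knockdown and rose by 0.79 ± 0.05 after PKM2 knockdown (edgeR adjusted P = 0.00686 and 9.06e-08). In TPM its NONO-experiment groups overlapped, at a log2 difference of −0.18 that was not called (limma adjusted P up to 0.551), while the rise after PKM2 knockdown was called. NOCT, the rhythmic phosphatase gene nocturnin, fell by 0.54 ± 0.09 and rose by 0.67 ± 0.07 (edgeR adjusted P = 0.000787 and 4.01e-06). PPARA, a lipid-sensing nuclear receptor gene, fell by 0.28 ± 0.09 after NONO knockdown (edgeR adjusted P = 0.0265), and its difference between the knockdowns was not called (0.22, edgeR interaction, adjusted P = 0.279). After PKM2 knockdown NAMPT rose by 0.25, TSC22D3 rose by 0.47 and KLF10 fell by 0.56, and the difference between the knockdowns was called for KLF10 and not for the others. Over the 4 lists, 6 of 31 tested genes were called higher and 4 lower after NONO knockdown, and 15 of 30 higher and 9 lower after PKM2 knockdown. The shares over all genes were 16.2% and 17.2% in the first experiment and 33.6% and 34.7% in the second. In TPM, limma did not call GSK3B, PPARA, SIN3A, TIMELESS or WEE1 after NONO knockdown in any of 3 forms. After PKM2 knockdown it did not call ARNTL2, CSNK1E, CSNK2A1, NAMPT, NONO, SIN3A, TSC22D3 or WDR5 in any form. Calls of TIMELESS, GSK3B, SIN3A and PPARA after NONO knockdown were lost with some library left out, at an edgeR adjusted P of up to 0.0686, 0.122, 0.0743 and 0.133. The same held for ARNTL2, BTRC and SIN3A after PKM2 knockdown, at up to 0.138, 0.144 and 0.110. HLF, FBXL21P and USP2 had too few counts to be tested in either experiment, and CIART too few in the PKM2 experiment.

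**Figure D5:**
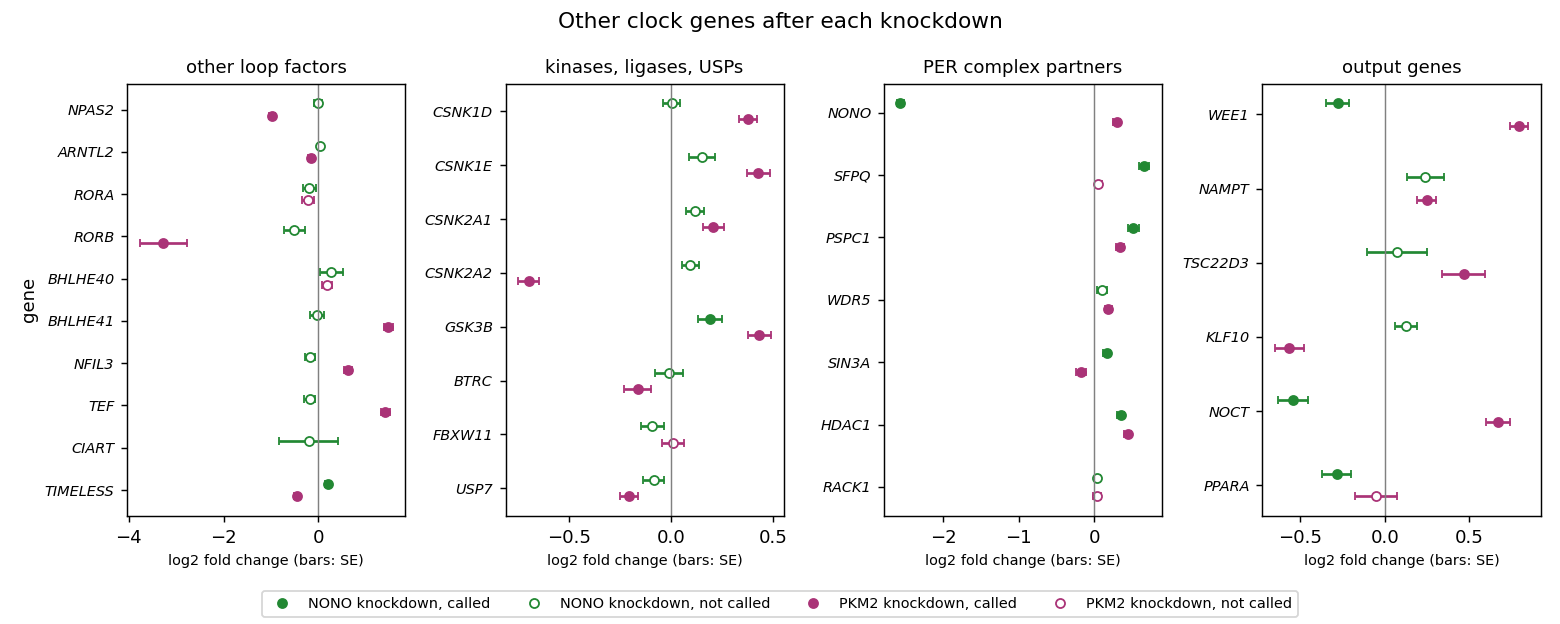
Log2 fold change with standard errors of the tested genes of the 4 further clock lists after NONO (green) and PKM2 (purple) knockdown, filled where the edgeR adjusted P was below 0.05. Each panel has its own axis range. WEE1 and NOCT are filled on opposite sides of 0, and NPAS2 and TEF lie at −0.98 and 1.41 after PKM2 knockdown.

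For each clock gene, the gene with the most similar profile was found by Pearson's r over the 12 libraries, among 14524 other genes, of log2 CPM centred on the NC mean of each experiment. The closest profiles were VDR for CRY1 (0.998), SS18L1 for NR1D2 (0.995), NR3C1 for PER3 (0.990) and ACVR1 for ARNTL (0.989). NR1D1, PER2 and PER1 were closest to TMEM173 (0.987), KLRC3 (0.984) and TOM1 (0.974), and CLOCK, CRY2 and DBP to PDPK1 (0.960), DNAJC21 (0.945) and RNF19B (0.942). No clock gene had another clock gene as its closest profile. The 12 libraries share the 4 groups, so these values describe likeness and carry no test.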

How the data were processed

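The authors deposited 1 table per experiment with estimated counts and TPM values per gene and library, from poly(A)-selected RNA read as 150-base pairs. The submitters' processing notes name fastp, HISAT2, StringTie, RSEM and build hg19, with no roles or versions. Strand handling is not given in the sources used here. Fold changes, P values and mean TPM of the authors' own comparison were not used. The number of unused columns with values per library was 0. The tables carry the same column names, so a column was assigned by its table.

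Estimated counts were rounded and tested with edgeR 4.0.16 (R 4.3.3), using the quasi-likelihood test, TMM and filterByExpr on the 6 libraries of each experiment, without a block. P values were Benjamini-Hochberg adjusted over all genes tested (threshold 0.05), and standard errors came from the F statistic. The difference between knockdowns was an interaction over 12 libraries, each knockdown against its own NC. Depth was 19861762 to 28455268 counts. Every library was counted as a sample of its own. Replicates differed by more than sampling noise (chi-square per degree of freedom 2.34 to 13.2), which does not show whether they came from separate cultures. Implied length is count over TPM, scaled in each library so that the median gene has its table length. Locations, shared exon bases and the GC content of the longest transcript come from GENCODE 29 on GRCh38, and promoters from RefSeq on GRCh38.p14. The effect of the different build named by the submitters was not tested. Clock genes and lists, and the rule of naming the clock genes, NONO, PKM, the 4 lists and each closest profile, were chosen with earlier results of these data known. Some list genes are not reported here and entered no list count. Other settings were a replicate block, all genes without the filter on low counts, DESeq2 1.42.0, size factors by relative log expression, GC and length trend removed in 20 bins, limma 3.58.1 on log2(TPM + 1) for a mean TPM from 1 up, on log2(TPM + 0.1) and without that filter, the study's cutoff (more than 2-fold, unadjusted P below 0.05), and each library left out. Neighbours and markers were chosen as checks. The edgeR, DESeq2 and limma fits were tried on simulated counts with known 2-fold and 4-fold changes. Those counts had few changed genes and no library that stood apart, unlike these data. Fits that left out a library, GC and length correction and implied lengths were not part of that trial.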

Additional observations from a re-analysis of the deposited data

Results flagged for a closer look

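The effects of the knockdowns, each against its own NC, differed by the edgeR interaction test (Benjamini-Hochberg adjusted P below 0.05) for 8 of 10 clock genes and 17 of 31 tested genes of the further clock lists. Over all genes of that fit, 53.1% were called in either direction. Values are log2 fold changes after PKM2 knockdown minus those after NONO knockdown. In these values the target and the experiment cannot be told apart. Among the clock genes, NR1D1 differed by 1.42, PER2 by 0.94, CRY1 by 0.92, PER1 by 0.80, NR1D2 by 0.75, ARNTL by 0.74, PER3 by 0.65 and CLOCK by 0.25, the last called in 5 of the 12 fits that left out 1 library. CRY1 and ARNTL were called in opposite directions in the experiments, and NR1D2 was called higher in both.

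Among other loop factors, TEF differed by 1.58, BHLHE41 by 1.49 and NFIL3 by 0.78, while RORB, NPAS2, TIMELESS and ARNTL2 differed by −2.77, −0.99, −0.67 and −0.21. The RORB value rests on 2 to 67 counts per library. The ARNTL2 difference was called in 4 of the 12 fits that left out 1 library (edgeR interaction, adjusted P up to 0.116) and not by DESeq2. Among stability genes, CSNK1D differed by 0.36, CSNK1E by 0.26, GSK3B by 0.23 and CSNK2A2 by −0.81. GSK3B was called in 7 of the 12 fits that left out 1 library (edgeR interaction, adjusted P up to 0.0851), and CSNK1E was not called in TPM (limma adjusted P up to 0.716). Among partners of the PER complex, NONO differed by 2.86, as the gene targeted in 1 of the experiments, SIN3A by −0.35 and SFPQ by −0.62. Of the output genes, NOCT differed by 1.20, WEE1 by 1.06 and KLF10 by −0.70.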

How the results depend on the processing

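Of 1313 values of single genes under an alternative, 1128 kept their direction and their side of the threshold or moved by less than 1 standard error, 118 kept the direction and lost the call, 12 gained a call, 41 moved and 14 changed sign. Of 206 counts, 168 stayed within 1.5 times. With limma on TPM, 0 clock genes were called higher after NONO knockdown in all 3 forms, and the lists gave 3 higher and 2 lower. All genes called higher after NONO knockdown then numbered 911, 913 with a pseudocount of 0.1 and 584 without the TPM filter, against 2396 by edgeR. Without that filter 1115 genes and 1 clock gene were called lower. After PKM2 knockdown these forms called 5, 5 and 4 clock genes and 9 list genes higher, and 3325 genes in all without the filter. The study's cutoff, more than 2-fold with P below 0.05 before adjustment, was applied to edgeR values. It left 0 clock genes and 0 list genes higher and 0 clock genes and 1 list gene lower after NONO knockdown, with 117 and 320 genes in all. After PKM2 knockdown it left 3 clock genes and 2 list genes higher and 1 list gene lower, with 1094 and 2140 genes in all. Without the low-count filter, 4 clock genes were called lower after NONO knockdown, with 2718 genes called lower in all.

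Leaving out 1 library gave 1 to 5 clock genes lower and 3 to 10 list genes higher after NONO knockdown. All genes called in those fits numbered 1868 to 3060 lower and 1658 to 3189 higher. PER3 ranged there from −0.063 to 0.022 and DBP after PKM2 knockdown from −0.093 to 0.18. On the TPM scale CRY2 changed sign after PKM2 knockdown (−0.21 with and without the filter, −0.26 with a pseudocount of 0.1), as did CLOCK (−0.040 with and without the filter, −0.045 with that pseudocount). Their differences between the knockdowns also changed sign, to −0.062 and −0.076 for CRY2 and to −0.0055 and −0.0067 for CLOCK. The cause of these changes was not tested. Replicate numbers did not pair the libraries, since same-numbered deviations correlated at −0.0655 to 0.0365 and not every library correlated best with its own number. A replicate block left 1 clock gene higher and 2 lower after NONO knockdown and 8 higher after PKM2 knockdown, and changed no call of a clock gene. With the block, 2080 genes in all were called higher and 2271 lower after NONO knockdown, and 5174 higher after PKM2 knockdown. The block ended the calls of GSK3B and PPARA after NONO knockdown and of BTRC after PKM2 knockdown, and that of the GSK3B difference between the knockdowns. Low counts limit what the values of PER2, RORB and CIART can show. Limma without the TPM filter was not run for the difference between the knockdowns, and GC and length correction gave fold changes without calls.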
